A study of Callithrix jacchus with 4 samples.

Results

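Astrocytes clear glutamate, potassium and water from the space around synapses. Here 9 astrocyte genes, most of them with a part in this work, were followed in the newborn marmoset brain. They are the glutamate transporters SLC1A2 and SLC1A3, glutamine synthetase (GLUL), the inward-rectifier potassium channel KCNJ10, the water channel AQP4, the gap junction proteins GJA1 and GJB6, the intermediate filament protein GFAP and the folate enzyme ALDH1L1. The genes were chosen by symbol, most for these roles and GFAP and ALDH1L1 as markers of astrocytes. Earlier results of these data were known when they were chosen. All 9 have a row in the count table of 35205 genes, and all 9 were among the 16956 genes abundant enough to be tested. RNA-seq counts came from 2 libraries of FMR1 mutant common marmosets, made with CRISPR/Cas9, and 2 libraries of wild-type common marmosets, all at postnatal day 5. FMR1 encodes FMRP, an RNA-binding protein whose loss causes fragile X syndrome. The sources used here do not give the exact FMR1 allele, the zygosity or whether a library is 1 animal. The p-values therefore cover only how these samples varied, which may be technical. The series describes forebrain that includes cerebral cortex, striatum and hippocampus, while each library is labelled only as brain.

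Glutamate released at synapses is taken up mainly by astrocytes through SLC1A2 and SLC1A3, turned into glutamine by GLUL and returned to neurons. KCNJ10 takes up potassium that active neurons release, and AQP4 lets water cross the astrocyte endfeet that line blood vessels. GJA1 and GJB6 join astrocytes into a network through which ions and metabolites spread. SLC1A3 is prominent early in development in rodents, where SLC1A2 increases as synapses mature.

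Total counts were 13153036 and 13455702 in mutant replicates 1 and 2, and 13256200 and 12331639 in wild-type replicates 1 and 2. FMR1 itself was counted 1062 and 1603 times in mutant libraries and 1144 and 966 times in wild-type libraries, so its RNA neither checks nor contradicts the genotype labels. A set of 9 astrocyte markers was detected in every library, the lowest count being 234 for S100B. The hindbrain genes EN1, HOXA2 and HOXB3 were at 0 in all libraries. A pair of libraries stood apart in genes of other regions, named here after their values were seen. The thalamic factor TCF7L2 had 118 and 121 counts in the mutant libraries, against 1272 in wild-type replicate 1 and 139 in wild-type replicate 2. Mutant replicate 1 had 1244 counts of the choroid plexus transcript TTR, against 87 in mutant replicate 2 and 8 and 89 in the wild-type libraries. Results are therefore also given without each of these libraries where that matters.

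SLC1A2 fell in the mutant libraries and was the only one of the 9 genes to pass the test over all genes. The other 8 genes had smaller or less certain differences, and none passed. All 9 fitted differences were negative, with log2 fold changes (mutant over wild-type) between -0.61 for SLC1A2 and -0.10 for KCNJ10 and AQP4. Their median was -0.31, beside -0.004 over all genes tested, of which 50.7% were negative. Of the 9, 1 was called lower at a Benjamini-Hochberg adjusted p of 0.05 by edgeR's quasi-likelihood test and 0 were called higher (0 also by DESeq2 and voom), where 1.57% of all genes tested were called lower and 0.661% higher. At an unadjusted p under 0.05, 4 of the 9 were lower and 0 higher, against 7.75% of all genes that were lower. In CPM, counts scaled by library size, 7 of the 9 had both mutant libraries below both wild-type libraries, as did 21.8% of all genes tested. These 9 genes were chosen as astrocyte genes and counted in the same libraries, so they are not independent of each other. Which cells their counts came from was not measured. In bulk tissue, fewer astrocytes and less of these RNAs per astrocyte cannot be told apart.

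**Figure D1:**
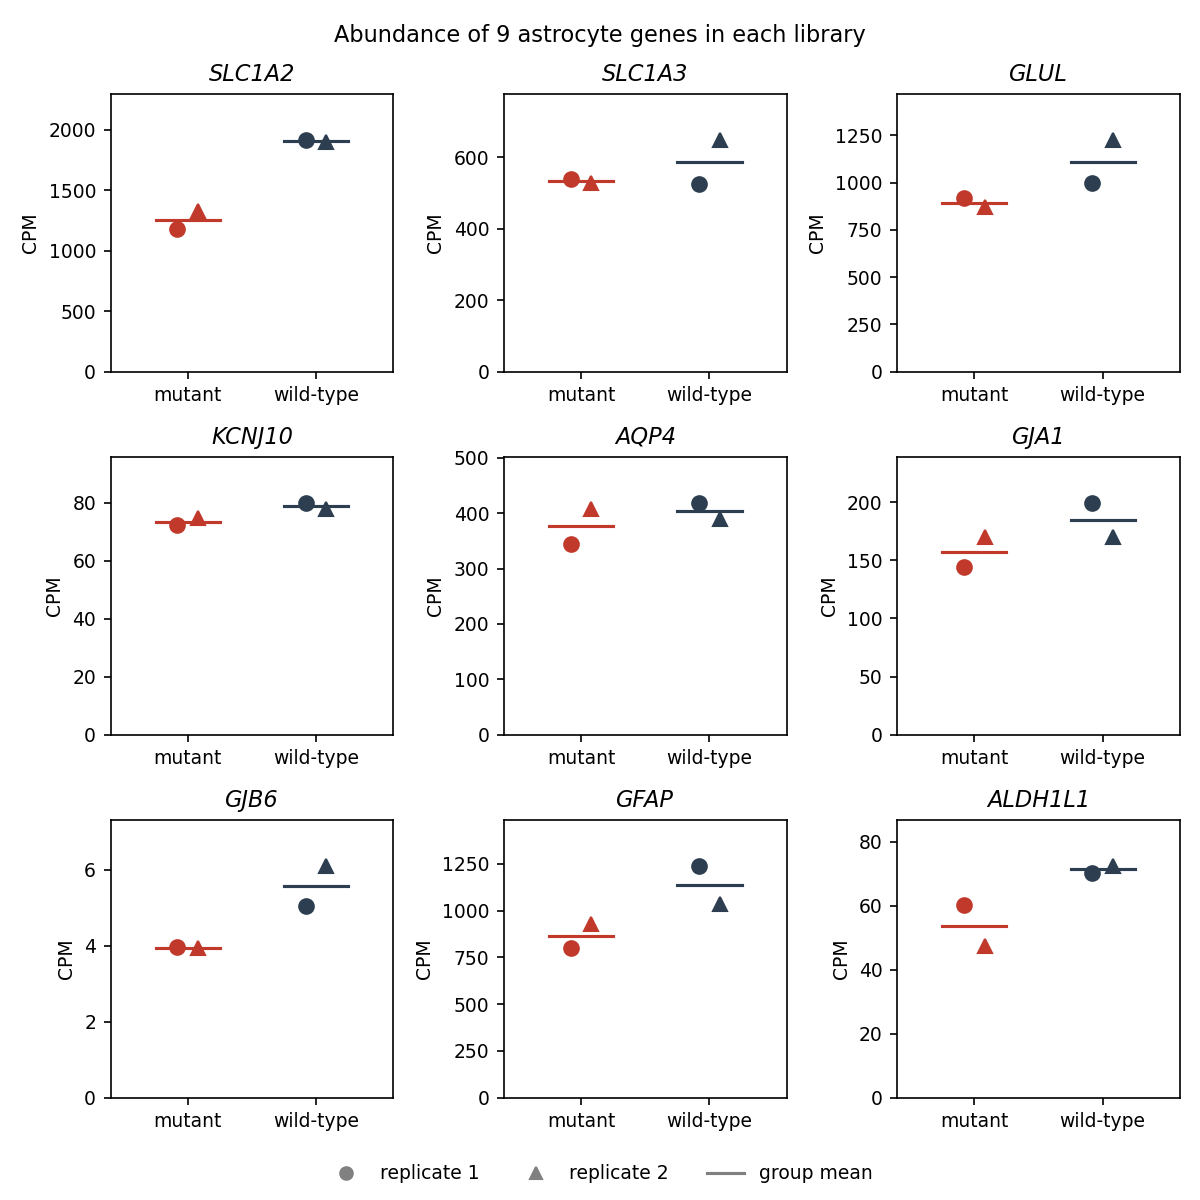
Abundance of each gene in each library, in CPM on axes that start at 0, with mutant libraries in red on the left and wild-type libraries in dark blue on the right. Circles are replicate 1, triangles replicate 2 and bars the mean of 2 libraries. The SLC1A2 points of the 2 groups are far apart, while those of SLC1A3 and AQP4 overlap.

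SLC1A2 encodes the transporter that carries most glutamate uptake in the mature forebrain. It was counted 15430 and 17876 times in the mutant libraries, or 1178 and 1326 CPM. Wild-type libraries had 25420 and 23287 counts, or 1918 and 1896 CPM. Both mutant libraries were thus well below both wild-type libraries, and the wild-type pair lay close together. The mutant mean was 65.7% of the wild-type level (95% interval 56.3% to 76.6%), a log2 fold change of -0.61 (SE 0.11, edgeR adjusted p = 9.68e-04), and the gene ranked 63 by p among all genes tested. The log2 fold change was -0.52 without mutant replicate 1 (adjusted p = 0.0218), -0.69 without mutant replicate 2 (0.00322), -0.60 without wild-type replicate 1 (0.00607) and -0.61 without wild-type replicate 2 (0.00393).

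SLC1A3, the other astrocyte glutamate transporter, overlapped between the groups. It was at 539 and 529 CPM in the mutant libraries, against 527 and 649 CPM in the wild-type libraries. Wild-type replicate 2 alone was high, and the other 3 libraries lay close together. Its log2 fold change of -0.14 (95% interval -0.37 to 0.10) did not pass (edgeR adjusted p = 0.671), and it was 0.02 without wild-type replicate 2.

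GLUL makes glutamine from glutamate and ammonia, and so takes up the product of both transporters. It was at 920 and 869 CPM in the mutant libraries, against 995 and 1226 CPM in the wild-type libraries. The groups did not overlap, but the gap between the 2 wild-type libraries was larger than that between the groups. The log2 fold change of -0.31 (95% interval -0.55 to -0.08) did not pass after adjustment (edgeR adjusted p = 0.177), and it was -0.15 without wild-type replicate 2.

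Of 19 other listed genes of glutamate and glutamine handling, all tested, 1 fell, 0 rose and 18 did not pass, with a median log2 fold change of -0.09. Of these, 13 had a negative and 6 a positive value. At an unadjusted p under 0.05, 5 were lower and 0 higher, against 7.75% of all genes tested that were lower. The gene that fell was PC, pyruvate carboxylase, an astrocyte-enriched enzyme that supplies carbon for new glutamate. It was counted 519 and 455 times in mutant libraries and 701 and 646 times in wild-type libraries (log2 fold change -0.52, SE 0.14, edgeR adjusted p = 0.0359). With any 1 of the 4 libraries omitted it did not pass (adjusted p from 0.0519 to 0.271), nor did it by DESeq2 (0.104). Next by p was SLC1A6, a glutamate transporter known from cerebellar Purkinje cells (-0.42, edgeR adjusted p = 0.0570).

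KCNJ10, which sets the high potassium permeability of astrocytes, differed little between the groups. It was at 72.1 and 74.7 CPM in the mutant libraries, against 79.9 and 77.8 CPM in the wild-type libraries. The groups did not overlap, though mutant replicate 2 and wild-type replicate 2 were close. The log2 fold change was -0.10 with a 95% interval of -0.36 to 0.15 (edgeR adjusted p = 0.799), so a mutant level under 78.0% or over 111% of wild-type lies outside that interval.

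The wider list of potassium and ion transport genes was lower in median than all genes tested. Of 16 listed, all tested, 14 had a negative log2 fold change and the median was -0.24. Of the 16, 1 fell, 0 rose and 15 did not pass. At an unadjusted p under 0.05, 5 were lower and 0 higher, against 7.75% of all genes tested that were lower. ATP1B2, a glial beta subunit of the sodium-potassium pump, was the one that fell. It was counted 4028 and 4141 times in mutant libraries and 6267 and 4655 times in wild-type libraries. Its log2 fold change was -0.47 (SE 0.12, edgeR adjusted p = 0.0231). Wild-type replicate 1, the library rich in TCF7L2, was the high one, and without it the value was -0.30 (adjusted p = 0.434). It also did not pass without mutant replicate 1 (0.120) or mutant replicate 2 (0.119). SLC12A2, a sodium, potassium and chloride cotransporter, was next at -0.48 (edgeR adjusted p = 0.0839) and passed only without wild-type replicate 2 (0.0293) among the fits with 1 library omitted.

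AQP4 overlapped between the groups. It was at 345 and 408 CPM in the mutant libraries, against 419 and 390 CPM in the wild-type libraries. Mutant replicate 1 was the low library, and mutant replicate 2 lay between the wild-type ones. On the log2 scale the difference was -0.10 (95% interval -0.34 to 0.13, edgeR adjusted p = 0.770), and 0.01 without mutant replicate 1. Among 13 genes of water transport and the endfoot complex that anchors AQP4, 11 were tested and 0 passed by edgeR, DESeq2 or voom, and none had an unadjusted p under 0.05. Their median was -0.15, and 10 had a negative and 1 a positive value. DMD, whose product dystrophin ties the endfoot to the basal lamina, was at 0.27 (edgeR adjusted p = 0.376) and DTNA, its partner dystrobrevin, at -0.21 (adjusted p = 0.451).

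GJA1, the most widespread connexin of astrocytes, was at 144 and 170.1 CPM in the mutant libraries and at 199.5 and 170.6 CPM in the wild-type libraries. The groups nearly met, since mutant replicate 2 and wild-type replicate 2 were nearly equal. GJA1 had a log2 fold change of -0.23 (95% interval -0.48 to 0.01, edgeR adjusted p = 0.404). That value was -0.12 without mutant replicate 1 and also -0.12 without wild-type replicate 1.

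GJB6, a second astrocyte connexin that appears later in rodent development, was the rarest of the 9 in counts. It was counted 52 and 53 times in the mutant libraries, against 67 and 75 times in the wild-type libraries. Both mutant counts were below both wild-type counts, but their exact Poisson 95% intervals overlapped, at 38.8 to 68.2 and 39.7 to 69.3 in mutant libraries and 51.9 to 85.1 and 59.0 to 94.0 in wild-type libraries. These intervals cover counting error only. The log2 fold change of -0.50 (95% interval -1.10 to 0.11) did not pass (edgeR adjusted p = 0.498), and that interval holds the size of the SLC1A2 fall as well as no difference. Of 11 other gap junction genes, 10 had a row and were tested, and 0 passed by edgeR, DESeq2 or voom, while 2 had an unadjusted p under 0.05. GJB1, the connexin of myelinating oligodendrocytes, was counted 14 and 2 times in mutant libraries and 28 and 29 times in wild-type libraries (edgeR adjusted p = 0.0979), and passed without mutant replicate 1 (0.0244). GJA5, an arterial connexin, was counted 16 and 24 times in mutant libraries and 10 and 6 times in wild-type libraries (adjusted p = 0.329).

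GFAP, the filament protein used most often to mark astrocytes, came nearest to the threshold after SLC1A2. It was at 803 and 931 CPM in the mutant libraries, against 1239 and 1037 CPM in the wild-type libraries. The groups did not overlap, and the libraries within each group were also far apart. GFAP had a log2 fold change of -0.39 (95% interval -0.63 to -0.16, edgeR adjusted p = 0.0654). It passed without wild-type replicate 2 (-0.51, adjusted p = 0.0284), whereas without wild-type replicate 1 it was -0.26 (0.546) and without mutant replicate 1 -0.29 (0.466).

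VIM, the filament protein that precedes GFAP in radial glia and young astrocytes, went the other way. It was at 2231 and 1849 counts in mutant libraries and 1494 and 1393 in wild-type libraries, and rose by 0.44 on the log2 scale (SE 0.12, edgeR adjusted p = 0.0481). It passed without mutant replicate 2 (0.0183) but not when any of the other 3 libraries was omitted (0.112 to 0.523), and not by DESeq2 (0.0746) or voom (0.0692). VIM was the only one of the 12 tested genes of filaments and astrocyte reactivity to pass, and 0 fell. TIMP1, a protease inhibitor made by reactive astrocytes and other cells, was next by p at -0.55 (edgeR adjusted p = 0.246).

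ALDH1L1, a folate enzyme that marks nearly all astrocytes, was at 60.1 and 47.5 CPM in the mutant libraries, against 70.4 and 72.5 CPM in the wild-type libraries. The groups did not overlap, and mutant replicate 2 was the lowest. A log2 fold change of -0.41 (95% interval -0.69 to -0.13) did not pass (edgeR adjusted p = 0.118), and it was -0.25 without mutant replicate 2. Of 13 other tested genes of folate and serine metabolism, 0 passed by edgeR, DESeq2 or voom and 1 had an unadjusted p under 0.05. The median was -0.13. PSPH, the last enzyme of serine synthesis, was at 0.32 (edgeR adjusted p = 0.366) and GCSH, of the glycine cleavage system, at -0.29 (adjusted p = 0.404).

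**Figure D2:**
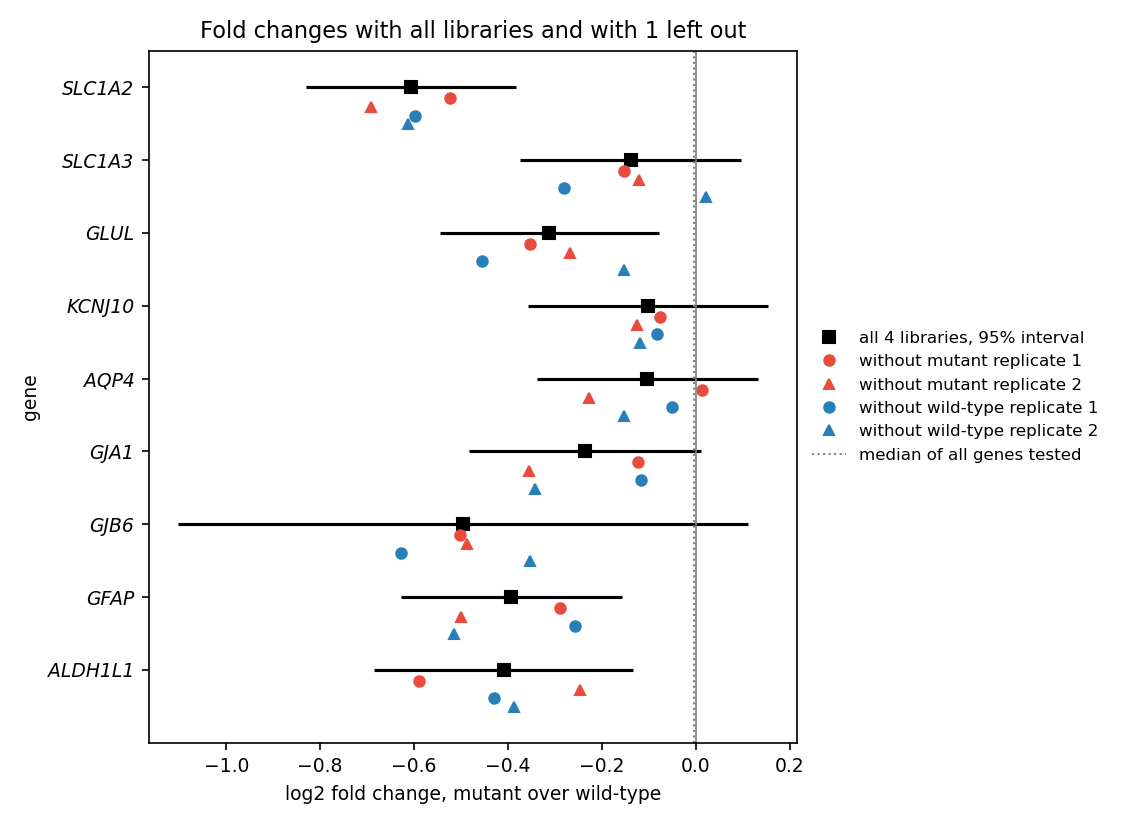
Log2 fold change of each gene, mutant over wild-type, with its 95% interval from all 4 libraries (black) and the values without each library in turn (colours). SLC1A2 stays between -0.69 and -0.52 throughout, while SLC1A3 and AQP4 each reach just above 0 once.

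The libraries of a group did not deviate in the same way for all 9 genes. Mutant replicate 1 was below mutant replicate 2 in SLC1A2, KCNJ10, AQP4, GJA1 and GFAP, by 0.05 to 0.24 on the log2 CPM scale, and above it by 0.34 in ALDH1L1. Wild-type replicate 1 was above wild-type replicate 2 by 0.26 in GFAP and 0.23 in GJA1, and below it by 0.30 in both SLC1A3 and GLUL. Counting error was at most 3.95% per library for each gene other than GJB6, where it reached 13.9%.

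Taken as a sum, the 9 genes held 4065 and 4359 CPM in the mutant libraries, against 5452 and 5524 CPM in the wild-type libraries. SLC1A2 alone made up 51.3% of the difference between the group means. The remaining 8 genes summed to 2887 and 3032 CPM in mutant libraries and 3534 and 3628 CPM in wild-type libraries, so the mutant mean was 82.7% of the wild-type mean. These sums are weighted by abundance and transcript length, and levels of different genes are not compared here because no transcript lengths were used.

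A ratio of 2 genes within a library does not depend on how libraries are scaled. The ratio of SLC1A2 to SLC1A3 counts was 2.19 and 2.51 in the mutant libraries, against 3.64 and 2.92 in the wild-type libraries. These groups did not overlap, with a log2 difference of -0.48 (SD over libraries 0.14 in mutant and 0.22 in wild-type). The ratio of SLC1A2 to GLUL was 1.28 and 1.53 in mutant libraries and 1.93 and 1.55 in wild-type libraries, a log2 difference of -0.30, with mutant replicate 2 and wild-type replicate 2 nearly level. For both ratios the exact two-sided permutation p was 0.333, the smallest that 2 libraries against 2 allow (0.832 adjusted over the 5 ratios compared). The ratios of GJA1 to GJB6, KCNJ10 to AQP4 and GFAP to ALDH1L1 overlapped between groups, with log2 differences of 0.26, 0.01 and 0.03 (exact permutation p = 0.667, 1 and 1). This permutation test therefore cannot show whether SLC1A2 fell by more than SLC1A3 or GLUL.

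**Figure D3:**
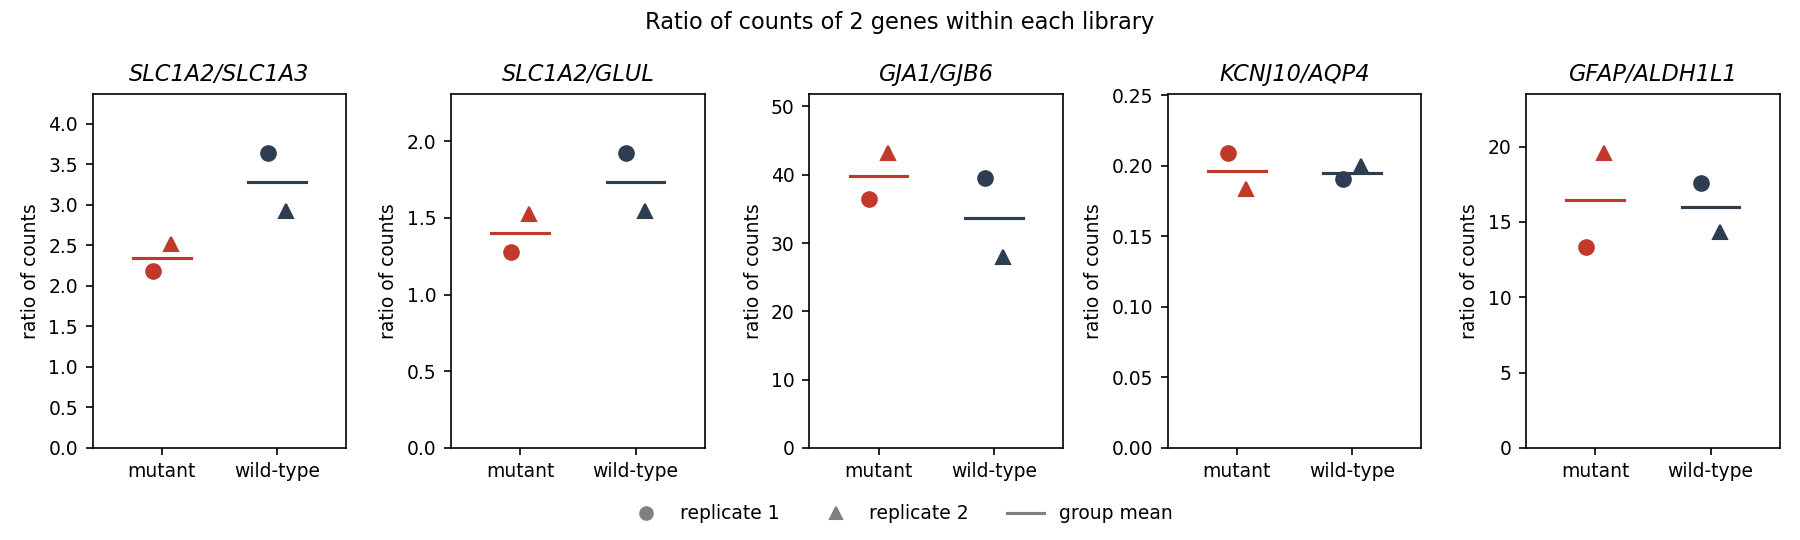
Ratio of the counts of 2 genes within each library, on axes that start at 0, with mutant libraries on the left and wild-type libraries on the right. Circles are replicate 1, triangles replicate 2 and bars group means. The 2 ratios with SLC1A2 on top do not overlap between groups and the other 3 do.

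Of 21 other astrocyte markers, all tested, 1 fell, 0 rose and 20 did not pass, with a median log2 fold change of -0.07. The fitted difference was negative in 15 and positive in 6. At an unadjusted p under 0.05, 5 were lower and 0 higher, against 7.75% of all genes tested that were lower. The one that fell was CLU, a secreted chaperone of astrocytes (-0.51, edgeR adjusted p = 0.00601), which passed whichever of the 4 libraries was omitted. Without wild-type replicate 2 the count was 2, FGFR3, a growth factor receptor, being the other (adjusted p = 0.0482). S100B, a calcium-binding protein of astrocytes and some oligodendrocytes, was counted 264 and 234 times in mutant libraries and 349 and 344 times in wild-type libraries (-0.53, adjusted p = 0.0886). The 21 markers summed to 3036 to 3129 CPM in mutant libraries and 3351 to 3503 CPM in wild-type libraries.

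**Figure D4:**
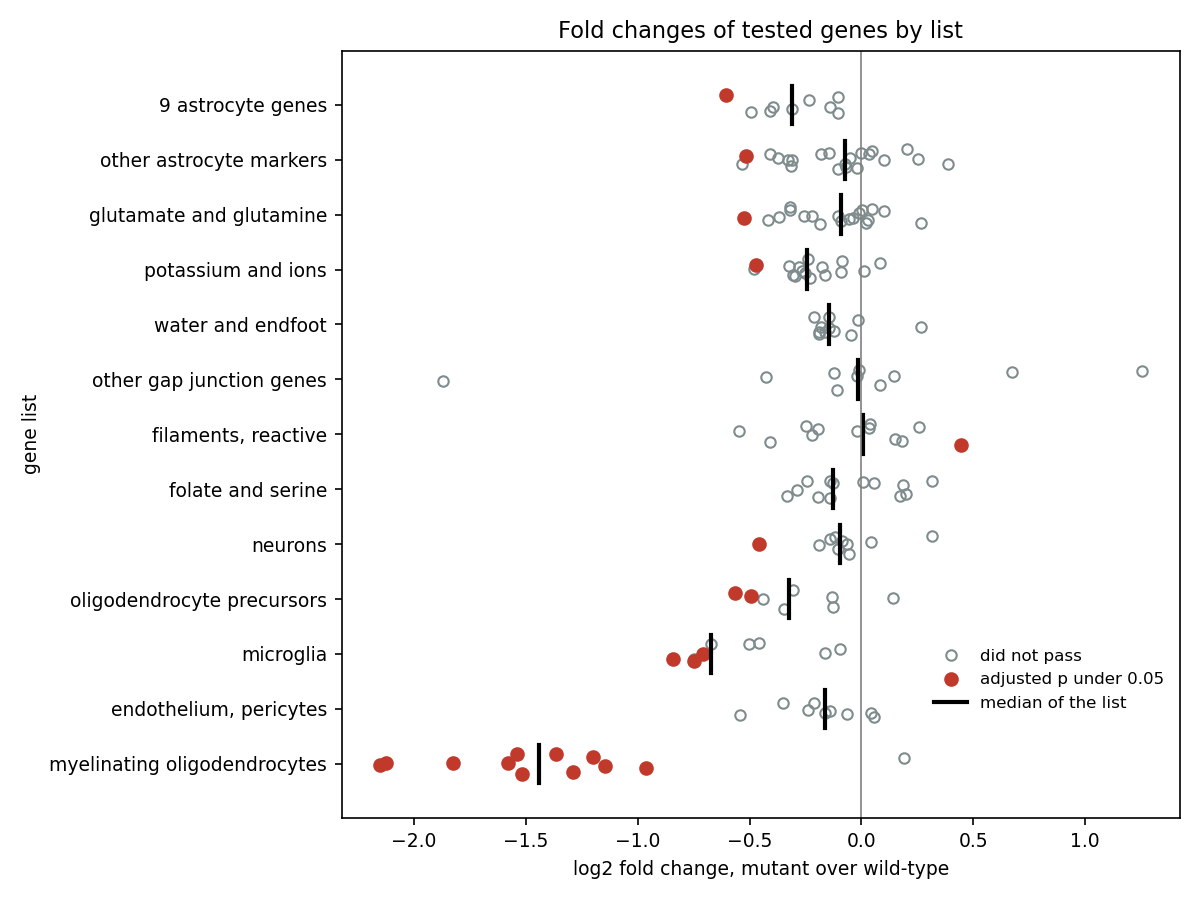
Log2 fold change, mutant over wild-type, of every tested gene of 13 lists, with 1 circle a gene. Filled red circles passed at an adjusted p under 0.05, open circles did not, and black bars are list medians. The 9 astrocyte genes have a median of -0.31 and myelinating oligodendrocytes -1.44.

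Markers of other cells differed between the same libraries, and their part in the astrocyte values was not tested. Of 12 markers of myelinating oligodendrocytes, 11 fell and 0 rose, with none at 0. They summed to 930 to 997 CPM in mutant and 2530 to 2563 CPM in wild-type libraries. The myelin proteins MBP (log2 fold change -1.58), MAG (-1.54) and MOBP (-1.37) and the tight junction protein CLDN11 (-1.14) were among them. Of 8 markers of oligodendrocyte precursors, 2 fell, SOX10 (-0.56, edgeR adjusted p = 0.0161) and GPR17 (-0.50, 0.0162), and the list summed to 725 to 770 CPM in mutant and 937 to 942 CPM in wild-type libraries. Neither passed without wild-type replicate 2 (0.0592 and 0.0763), nor did SOX10 without mutant replicate 2 (0.214) or GPR17 without mutant replicate 1 (0.167). Of 9 microglial markers, 3 fell (LAPTM5, CSF1R and CX3CR1, none of which passed without mutant replicate 2), and the list summed to 100.2 to 149.6 CPM in mutant and 188 to 205 CPM in wild-type libraries.

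Among the remaining lists, the median log2 fold change was -0.09 for neuronal and -0.16 for vessel markers. Of 10 neuronal markers, 1 fell, GAD2, which makes GABA (-0.46, edgeR adjusted p = 0.0352), and with 1 library omitted it passed only without wild-type replicate 1. STMN2, a protein of growing axons, was at 0.31 (adjusted p = 0.141), and the neuronal list summed to 9403 to 9580 CPM in mutant and 9274 to 9364 CPM in wild-type libraries. Of 9 vessel markers 0 passed by edgeR, DESeq2 or voom (unadjusted p was under 0.05 for 2), with the efflux pump ABCB1 at -0.54 (adjusted p = 0.279) and the growth factor receptor FLT1 at -0.35 (0.370). By the same 3 tools 0 passed of 8 tested genes of radial glia and ependyma, where HOPX was at 0.31 (adjusted p = 0.248) and TPPP3 at -0.26 (0.450), with 1 at an unadjusted p under 0.05. Of 10 forebrain genes 0 passed by edgeR or voom, 1 rose by DESeq2 and 5 had an unadjusted p under 0.05, PPP1R1B of striatal neurons at -0.32 (adjusted p = 0.192) among them. Of 7 tested genes of thalamus, hindbrain and choroid plexus 0 passed by edgeR, DESeq2 or voom and 3 had an unadjusted p under 0.05. LEF1 (-0.83, adjusted p = 0.0801) and PRKCD (-0.64, 0.290) led these, and both were high only in wild-type replicate 1, the library rich in TCF7L2. LEF1 had 259 counts there, against 131 in wild-type replicate 2 and 103 and 123 in mutant libraries. PRKCD had 487, against 243 in wild-type replicate 2 and 247 and 234 in mutant libraries. The median of this list was -0.64 with all libraries and -0.13 without wild-type replicate 1. Of 6 tested genes of meninges and blood 0 passed by edgeR, DESeq2 or voom and 2 had an unadjusted p under 0.05, COL1A1 at -0.74 (adjusted p = 0.0979) and LUM at 0.52 (0.346).

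The genes whose pattern over the 4 libraries lay nearest to that of SLC1A2 were sought among 4700 other genes with a symbol and a mean of at least 50 CPM. Likeness was the root mean square difference of log2 CPM centred over the libraries, given as a description with no test. The nearest was RASGRF1, an activator of Ras in neurons, at 0.019, with 124 and 140 CPM in mutant libraries and 208 and 199 CPM in wild-type libraries. It was followed by FAM135B (0.036), CNTN2, an adhesion molecule of myelinated axons (0.045), GPR37L1, a receptor of glia (0.048), and NFASC, neurofascin of axon initial segments and nodes (0.050). With only 4 libraries, genes can lie this close without being related.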

How the data were processed

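The deposited values are raw read counts by gene, from poly(A)-selected libraries made with a directional kit, per the labels' protocols. Trimmomatic 0.38 and STAR 2.7.10a are named in the submitters' processing notes. The sources used here do not give the counter, its strand setting, the genome build or the annotation. Columns were matched to libraries by the names in the labels.

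Genes were kept by filterByExpr (minimum count 10), scaled by TMM and tested with edgeR 4.0.16 (quasi-likelihood, robust = TRUE) in R 4.3.3, mutant over wild-type, with Benjamini-Hochberg adjustment over all 16956 genes tested. Every adjusted p printed is from this test unless another tool is named. The SE is the log2 fold change over the square root of F. CPM is scaled by TMM. Alternatives were DESeq2 1.42.0, limma-voom 3.58.1, other scalings and filters, the replicate number as a block, and each library left out with the gene set kept. An arm left with 1 library is assumed to vary like the other. The test was checked on simulated counts, with changes given to genes drawn from all those tested. It called 28.2% of genes given a log2 change of 0.5, 64.1% at 1 and 92.2% at 2. A gene that did not pass may therefore still differ by an amount of that smallest size, unless its own interval leaves that size out. The 95% intervals of SLC1A3, KCNJ10, AQP4 and GJA1 left out a log2 change of 0.5 in either direction. The bound nearest to that size was -0.48, for GJA1. Those of GLUL, GJB6, GFAP and ALDH1L1, which also did not pass, held a fall of 0.5.

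The 9 genes and the 16 other lists were chosen with earlier results of these data known. Named from each list were up to 4 passing genes by p, or the first 2 by unadjusted p where fewer than 2 passed; a gene this rule takes is not reported here by name. Sequences are not used here.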

Additional observations from a re-analysis of the deposited data

How the results depend on the processing

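SLC1A2 kept its direction and its call in all 12 alternatives, with log2 fold changes between -0.69 and -0.52. The 9 genes gave 1 lower call and 0 higher calls, but 2 lower calls without the low-count filter (GFAP then at an adjusted p of 0.0267, 0.0267 to 0.546 over its alternatives), 2 at an adjusted p of 0.1, and 1 to 2 with 1 library left out. With 1 library left out, SLC1A3 lay between -0.2815 and 0.0221 (positive only without wild-type replicate 2), and AQP4 between -0.2275 and 0.0130, positive only without mutant replicate 1, and neither passed. The other 7 genes kept their sign in all 12. The median of the 9 lay between -0.34 and -0.27 with 1 library left out. The log2 differences of ratios then lay between -0.64 and -0.32 for SLC1A2 to SLC1A3, -0.46 and -0.15 for SLC1A2 to GLUL, 0.01 and 0.51 for GJA1 to GJB6, -0.09 and 0.10 for KCNJ10 to AQP4, and -0.25 and 0.30 for GFAP to ALDH1L1. Over all genes, 378 were called (112 higher, 266 lower). The count was 244 by DESeq2 on all rows (164 lower), 633 without the low-count filter (194 higher, 439 lower), and 624 at an adjusted p of 0.1 (216 higher, 408 lower). With 1 library left out it was 163 to 562 (45 to 173 higher, 118 to 389 lower), and the cause was not tested. Replicate numbers are not said to pair samples, and same-numbered libraries did not deviate together (r = 0.0311 across genes). With the replicate block 493 genes were called, and SLC1A2 remained the one member called (-0.61). Low counts limit GJB6 most, with a counting error of up to 13.9% per library.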
